A study of Arabidopsis arenosa x Arabidopsis thaliana and Arabidopsis thaliana and Arabidopsis arenosa with 5 samples.

Results

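The total transcript level of an F8 allotetraploid Arabidopsis, the sum of its A. arenosa and A. thaliana alleles, was set against both parental species gene by gene. A gene was compared where the larger parental mean reached 5 RPKM (a read count scaled to transcript length and library size), and 9931 genes of the 32313 in the parental tables met this rule and were listed in F8. F8 has 1 column and each parent 3, so every statement below is the size of a difference with no test: a gene is called above or below where F8 lies outside the range of all 6 parental columns on the log2(RPKM + 1) scale.

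Allotetraploids carry the complete chromosome sets of 2 species in 1 nucleus, and each gene is usually present as a pair of homeologs, one from each parent. A total at the mid-parent value is what the homeologs would give if each kept the activity it has in its own species. Totals outside both parents are known from many plant allopolyploids and hybrids, in which clock, photosynthesis and stress genes have been studied most.

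The F8 plants were allotetraploids of the F8 generation, sampled as rosette leaves at 6 to 7 weeks. The resynthesized F1 allotetraploid (3 columns) and naturally occurring A. suecica (1 column), which derives from the same species pair, had the same age by the labels. The parents were autotetraploid A. arenosa of ecotype Care-1, also 6 to 7 weeks old, and autotetraploid A. thaliana of ecotype Landsberg erecta, 3 to 4 weeks old. Age and genotype therefore cannot be told apart in any comparison with A. thaliana. All plants were sampled before bolting and grew with 16 h of light at 22 °C and 8 h of dark at 20 °C. The labels do not say whether the columns of a parent are separate plants, and the sources used here give no hour of harvest.

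The columns differed in ways that touch the calls. Loci of ribosomal RNA took 47.6% of the summed RPKM in A. arenosa replicate 1 and 0.13% to 1.68% in the other parental columns. The Spearman correlation of F8 with a parental column, across genes and as a description only, ran between 0.692 (A. thaliana replicate 1) and 0.873 (A. arenosa replicate 3). The leaf identity held in F8: the 45 genes of the photosystems and light harvesting had a median level of 11.22 on the log2 scale in F8, against 11.17 to 11.39 in A. arenosa and 8.99 to 11.79 in A. thaliana. None of the 8 flower, 5 root and 2 meristem markers was listed in F8, whose table starts at a total of 2.001 RPKM. Some were over that level in a parent: the flower marker SEP2 had 8.287, 17.68 and 15.07 RPKM in A. arenosa. The root marker PYK10 had 15.52 RPKM in A. thaliana replicate 3. The 5 vascular markers summed to 263.3 RPKM in F8, 249.1 to 332.6 RPKM in A. arenosa and 138 to 232.1 RPKM in A. thaliana. In bulk leaves, more cells of a type and more RNA per cell cannot be told apart.

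F8 stood above all 6 parental columns at 2188 genes, 22% of those compared, and below all 6 at 871 genes (8.77%). The remaining 6872 genes (69.2%) lay within the parental range. Another 2527 genes met the parental filter but were not listed in F8, whose table starts at 2.001 RPKM. Genes with a lower F8 total entered no count, which limits the count below and not the count above. Most departures were small: the median distance to the nearest parental column was 0.18 (log2) for genes above and -0.23 for genes below. A distance of at least 2-fold was reached by 32 genes above (0.322%) and 46 genes below (0.463%), and one of at least 4-fold by 1 gene above (0.0101%) and 3 genes below (0.0302%). Against the mid-parent value, 653 genes (6.58%) were higher by 2-fold or more and 431 (4.34%) lower.

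The excess of genes above depended on the scale. The median of F8 minus mid-parent was 0.17 over all genes, and 71.5% of the genes outside the range were above it. After each column was centred on its own median, 1703 genes (17.1%) lay above and 1319 (13.3%) below, so that 56.4% of the genes outside were above. The 2-fold counts were then 28 (0.282%) and 61 (0.614%). With the columns rescaled to 1 sum over shared transcripts the order turned, with 1015 genes above and 1391 below, and with 253 at least 2-fold over mid-parent and 794 at least 2-fold under it. On the deposited and the centred scale the same 1497 genes lay above and 824 below, and no gene crossed from one side to the other.

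**Figure D1:**
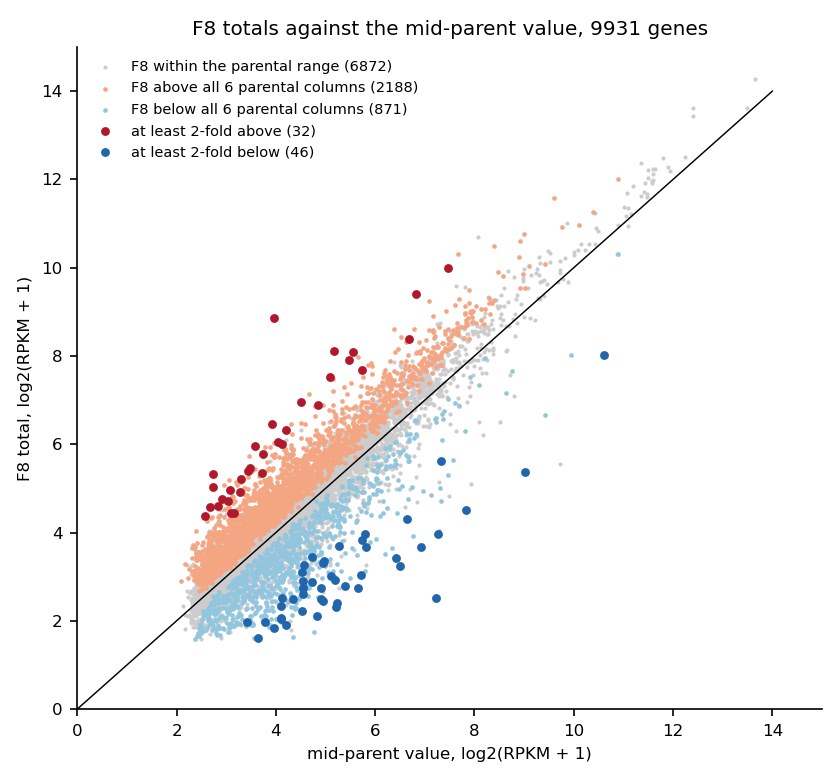
F8 total against the mid-parent value, both on the log2(RPKM + 1) scale, with 1 point per gene for 9931 genes and a line of equality. The 32 genes at least 2-fold above all 6 parental columns and the 46 at least 2-fold below are drawn larger and stand clear of the grey genes within the parental range.

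The genes farthest above both parents were led by AT1G51402, which encodes an uncharacterized protein. It had 463.9 RPKM in F8, against 34.4, 14.2 and 10.5 RPKM in A. arenosa and 7.05, 29.1 and 8.05 RPKM in A. thaliana. F8 was 13.1-fold over the highest parental column, and all 6 parental columns overlapped in a low range. The F1 columns had 130.2, 14.58 and 462.8 RPKM, so F1 replicate 3 was near F8 and F1 replicate 2 lay within the parental range. AT3G15450, annotated as an aluminum induced protein, had 274.4 RPKM in F8, against 16.6, 55.1 and 49.9 RPKM in A. arenosa and 15.6, 33.1 and 77.6 RPKM in A. thaliana, a distance of 3.51-fold. At this gene the F1 columns had 91.3, 253.5 and 236.1 RPKM. The glycine-rich protein gene AT4G29020 had 61.1 RPKM in F8, against 12.3 to 15.2 RPKM in A. arenosa and 3.31 to 18.7 RPKM in A. thaliana. None of these 3 genes separated the parents, whose columns overlapped at each of them.

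CP29, a chloroplast RNA-binding protein that handles plastid transcripts, had 1021 RPKM in F8, against 79.5, 325.8 and 290.0 RPKM in A. arenosa and 143.7, 110.0 and 239.4 RPKM in A. thaliana. FLN2, a fructokinase-like protein that belongs to the plastid transcription machinery, had 36.3 RPKM in F8, against 9.49 to 14.3 RPKM in A. arenosa and 3.497 to 15.1 RPKM in A. thaliana. For emb2746, an RNA-metabolising protein of the metallo-beta-lactamase family, the values were 30.4 RPKM in F8, 3.47 to 12.1 RPKM in A. arenosa and 4.19 to 10.3 RPKM in A. thaliana. Each of these stood 2.32-fold to 3.13-fold over the highest parental column.

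C/VIF2, an inhibitor of invertases, had 65.4 RPKM in F8, against 9.26, 16.7 and 11.9 RPKM in A. arenosa and 20.5, 17.0 and 19.0 RPKM in A. thaliana. The cell wall invertase gene ATBFRUCT1 lay on the other side, with 5.65 RPKM in F8, against 31.7, 15.02 and 21.2 RPKM in A. arenosa and 27.1, 23.0 and 19.3 RPKM in A. thaliana. TMT1, which carries monosaccharides into the vacuole, had 79.0 RPKM in F8, against 9.39 to 34.0 RPKM in A. arenosa and 13.9 to 24.5 RPKM in A. thaliana. F8 stood outside all 6 parental columns at all 3 genes. The parental columns overlapped at ATBFRUCT1 and TMT1, and at C/VIF2 every A. arenosa column lay under every A. thaliana column. The beta-xylosidase gene XYL4, whose product trims cell wall xylan, had 86.8 RPKM in F8, against 7.34 to 36.8 RPKM in A. arenosa and 10.2 to 12.6 RPKM in A. thaliana. DIN10, a raffinose synthase gene known to be dark-inducible, had 122.9 RPKM in F8, against 4.41, 43.6 and 60.3 RPKM in A. arenosa and 12.02, 14.9 and 44.0 RPKM in A. thaliana.

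LCR69, a small cysteine-rich protein of the defensin type, had 677.9 RPKM in F8, against 155 to 224.6 RPKM in A. arenosa and 20.4 to 64.9 RPKM in A. thaliana, so that F8 lay beyond the higher of 2 separated parents. AIF1, an atypical bHLH protein that restrains the brassinosteroid response, had 31.7 RPKM in F8, against 3.55 to 12.3 RPKM in A. arenosa and 2.101 to 5.23 RPKM in A. thaliana. COR15B, a cold-regulated protein of the chloroplast stroma, had 184 RPKM in F8, against 13.4, 38.2 and 24.1 RPKM in A. arenosa and 66.1, 26.1 and 47.1 RPKM in A. thaliana. AT4G30650, of a low temperature and salt responsive family, had 238.6 RPKM in F8, against 8.82 to 81.6 RPKM in A. arenosa and 38.5 to 89.8 RPKM in A. thaliana. AT3G59040, a tetratricopeptide repeat protein, and AT2G42320, annotated as gar2-like and nucleolar, were 2.81-fold and 2.76-fold over the highest parental column.

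Among the genes farthest below, the first was WRKY70, a transcription factor of the salicylic acid response. It had 14.53 RPKM in F8, against 252.4, 79.1 and 115.7 RPKM in A. arenosa and 271.6, 254.5 and 77.1 RPKM in A. thaliana. F8 was 5.03-fold under the lowest parental column. WRKY54, its close relative in sequence and function, had 4.32 RPKM in F8, against 55.3, 19.1 and 44.1 RPKM in A. arenosa and 81.9, 57.3 and 10.3 RPKM in A. thaliana. NPR4, a receptor of salicylic acid, had 4.68 RPKM in F8, against 13.01 to 19.1 RPKM in A. arenosa and 10.7 to 22.3 RPKM in A. thaliana. For WRKY54 and NPR4 the nearest parental column was A. thaliana replicate 3.

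Receptor kinases and a gene of unknown function were also among the genes far below. AT1G56120, a leucine-rich repeat transmembrane kinase, had 9.66 RPKM in F8, against 90.2, 47.0 and 76.7 RPKM in A. arenosa and 123.6, 158.2 and 49.7 RPKM in A. thaliana. AT1G35710, another kinase with leucine-rich repeats, had 8.42 RPKM in F8, against 62.9 to 114.1 RPKM in A. arenosa and 31.0 to 185.9 RPKM in A. thaliana. AT5G42530 encodes an uncharacterized protein. It had 258.7 RPKM in F8, against 2359, 1233.5 and 1075.7 RPKM in A. arenosa and 1472.5, 2415 and 1287.6 RPKM in A. thaliana. These 3 genes lay 3.39-fold to 4.5-fold under the lowest parental column.

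MYB77, a transcription factor that acts in the auxin response, had 4.68 RPKM in F8, against 27.2, 22.4 and 24.6 RPKM in A. arenosa and 24.8, 21.3 and 69.4 RPKM in A. thaliana. ZAT12, a zinc finger protein of the cold and oxidative stress response, had 13.2 RPKM in F8, against 40.7, 53.9 and 35.8 RPKM in A. arenosa and 94.9, 57.5 and 43.2 RPKM in A. thaliana. The ethylene response factor gene ERF-1 had 5.87 RPKM in F8, against 21.3 to 61.7 RPKM in A. arenosa and 18.1 to 114 RPKM in A. thaliana. ACS6, which makes the precursor of ethylene, had 9.21 RPKM in F8, against 20.0 to 23.1 RPKM in A. arenosa and 29.4 to 56.5 RPKM in A. thaliana. LBD21, a LOB domain protein, had 8.97 RPKM in F8, against 22.2 to 54.8 RPKM in A. arenosa and 24.1 to 35.6 RPKM in A. thaliana. ADT4, which converts arogenate into phenylalanine, NUDT6, a nudix hydrolase, and the kelch repeat gene AT1G80440 were 2.4-fold, 2.44-fold and 2.23-fold under the lowest parental column.

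Product names repeated within the genes at least 2-fold below, in words chosen after the names were read. The word EF-hand, the calcium-binding fold, stood in 3 of the 46 names (AT4G27280, AT3G47480 and AT1G21550) and in 20 of the 9931 compared genes (0.201%). AT4G27280 had 18.8 RPKM in F8, against 51 to 77.0 RPKM in A. arenosa and 114.9 to 148 RPKM in A. thaliana. MATE efflux transporters supplied 2 of the 46 and 19 of all compared genes. WRKY factors supplied 2 of the 46 and 23 of all compared genes, kinases 4 of the 46 and 572 of all. The remaining genes of the set include ZIP11, a zinc transporter, LACS3, an acyl-CoA synthetase, and CNI1, a protein of the carbon and nitrogen response. ZIP11 had 3.99 RPKM in F8, against 26.4 to 65.1 RPKM in A. arenosa and 17.8 to 46.0 RPKM in A. thaliana. ZIP11 and LACS3 lay 3.76-fold and 3.52-fold under their lowest parental columns. These columns were under the 20 RPKM asked of the genes named below.

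**Figure D2:**
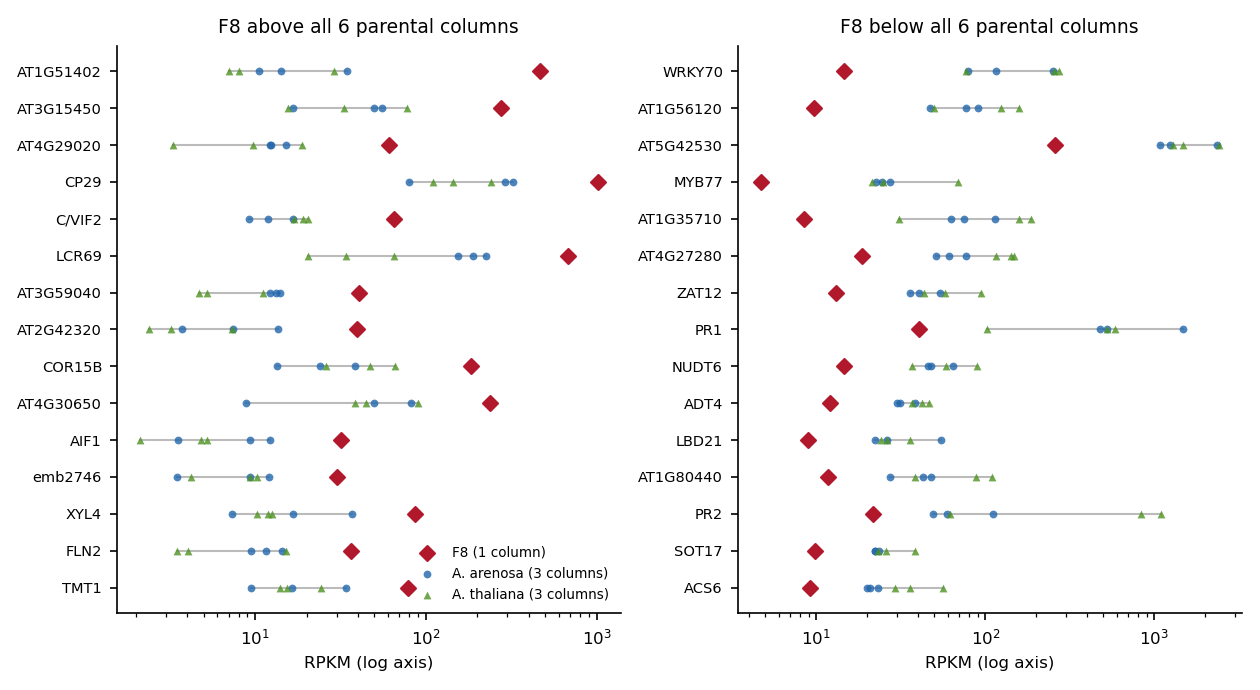
RPKM (log axis) of the 15 genes named above and the 15 named below, with 1 diamond for F8, 3 circles for A. arenosa and 3 triangles for A. thaliana, and a grey line over the parental range. In each row the F8 diamond stands outside the line, by 2.06-fold for ACS6 to 13.1-fold for AT1G51402.

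The 2-fold threshold divides neighbours that hardly differ. Just inside it were AT2G34510 (2.01-fold above) and AT3G47540, a chitinase family protein (2-fold below), and just outside it BGAL10 and PDE312 (1.99-fold above each).

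The salicylic acid and immune list lay low as a whole. Of its 17 members compared, 9 were below all 6 parental columns and none above, beside 8.77% and 22% of all genes, and the median of F8 minus mid-parent was -1.24, against 0.17 over all genes. All 17 members lay under the mid-parent value. F8 was under all 3 A. arenosa columns at 14 members and under all 3 A. thaliana columns at 12, beside 29% and 14.5% of all genes. The lowest parental column was A. thaliana replicate 3 at 13 of the 17 members. The median level of the list was 3.88 (log2) in F8, 4.73 to 5.03 in A. arenosa and 5.45, 4.67 and 3.77 in A. thaliana, so that A. thaliana replicate 3 was lower than F8 by this measure. Without that column 13 members were below, and on the rescaled columns 8 were.

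Members below included end products and regulators. PR1, the classical antimicrobial marker protein of the pathway, had 40.3 RPKM in F8, against 1469, 476.3 and 523.9 RPKM in A. arenosa and 522.6, 587.1 and 102.5 RPKM in A. thaliana. PR2, a secreted glucanase, had 21.7 RPKM in F8, against 111.7, 49.0 and 59.7 RPKM in A. arenosa and 1095, 833.2 and 61.7 RPKM in A. thaliana. F8 was 2.5-fold and 2.2-fold under the lowest parental columns of PR1 and PR2. SARD1 and CBP60G, transcription factors that switch on salicylic acid synthesis, had 7.00 and 3.97 RPKM in F8. SARD1 ranged over 32.6 to 55.2 RPKM in A. arenosa and 11.4 to 47.6 RPKM in A. thaliana, and CBP60G over 19.4 to 27.3 RPKM in A. arenosa and 5.23 to 35.0 RPKM in A. thaliana. PBS3 and EDS5, which take part in making and exporting the hormone, and PAD4, a partner of EDS1, were below by 0.15 to 0.61 on the log2 scale. ICS1, the main synthesis enzyme, stayed within the range with 7.76 RPKM in F8, against 15.2 to 28.7 RPKM in A. arenosa and 5.63 to 20.6 RPKM in A. thaliana. The members nearest to mid-parent were WRKY18 (-0.04) and WRKY33 (-0.15).

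Glucosinolates are the next group. These sulfur-rich defence compounds of the cabbage family are built from methionine in one branch and from tryptophan in the other, with late steps in common. Of 23 members compared, 10 were below all parental columns and 1 (MYB28, by 0.04 on the log2 scale) above, beside 8.77% and 22% of all genes. The median of F8 minus mid-parent was -0.43. CYP79B2 and CYP79B3, which start the tryptophan branch, had 18.5 and 23.3 RPKM in F8, CYP79B2 with 38.3 to 81.6 RPKM in A. arenosa and 29.4 to 57.8 RPKM in A. thaliana, CYP79B3 with 31.4 to 42.4 RPKM in A. arenosa and 35.8 to 48.2 RPKM in A. thaliana. CYP83B1, the next enzyme, and MYB51, the regulator of the branch, were below by 0.17 and 0.16 (log2). Of later enzymes, SUR1, UGT74B1, SOT16, SOT17 and SOT18 were below, as was NSP5, a nitrile specifier. SOT17, a sulfotransferase, had 9.89 RPKM in F8, against 22.2, 23.5 and 22.2 RPKM in A. arenosa and 38.3, 25.9 and 23.2 RPKM in A. thaliana.

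Other members stayed within the parents. BCAT4, MAM1 and CYP83A1 had values within the range of both parents, and MAM3 within that of A. arenosa. ESP, which directs glucosinolate breakdown to nitriles, had 1644 RPKM in F8, against 7.33, 8.13 and 9.29 RPKM in A. arenosa and 128.4, 487.8 and 2382 RPKM in A. thaliana. TGG1, a myrosinase, was at 0.82 over mid-parent within the A. arenosa range. The A. arenosa allele of ESP was at 0 in F8, and the total lay within the wide A. thaliana range. CYP79F1 and CYP79F2 are near-identical neighbours, so reads may be shared between them and their values are uncertain.

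Ribosomal protein genes lay high. Of 19 cytosolic members compared, 13 lay above and none below, beside 22% and 8.77% of all genes, with a median of 0.74 over mid-parent. F8 was over all 3 A. thaliana columns at 19 of 19, beside 49.5% of all genes. It was over all 3 A. arenosa columns at 13, beside 33.7%. RPS5A, a protein of the small subunit, had 334.7 RPKM in F8, against 95.5, 113.0 and 161.0 RPKM in A. arenosa and 61.9, 67.7 and 140.3 RPKM in A. thaliana. Its whole F8 value was assigned to the A. arenosa allele, and with RPS5B as a close copy the assignment is uncertain. RPL23AA, of the large subunit, had 195.0 RPKM in F8, against 50.2 to 127.1 RPKM in A. arenosa and 53.3 to 65.8 RPKM in A. thaliana. RPL5B and RPL5A had 290.8 and 358.8 RPKM in F8, and their highest parental values were 210.6 and 299.6 RPKM. RPL10B, at -0.24 from mid-parent, was the one member under it, and RPL16A stood at 0.13. Among all compared genes whose annotated name contains ribosomal protein, organelle ones included, 156 of 271 lay above (7.13% of the genes above carry the words, against 2.73% of all compared) and 5 below.

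Promoter sequence was not used in the selection. Site II (TGGGCC, either strand), a motif known from promoters of ribosomal protein genes in plants, occurred within 250 bases before the gene start in 11 of the 19 cytosolic members (57.9%), against 18.8% of the 9891 compared genes with a window. Of the 11 members with the site, 6 lay above and 5 within the parental range, and of the 8 without it 7 lay above. The site was held by 23.4% of the promoters of genes above and 12.8% of those below, but by 3 of 32 and 3 of 46 in the 2-fold sets. The stretches around the first match, from RefSeq's TAIR10.1 and chosen after the values were seen, show the site in capitals in 5 members, 5′ to 3′ on the strand of the gene: RPL5B at chr5:15903156-15903185 (+), RPL5A at chr3:9271475-9271504 (-), RPL18 at chr3:1621300-1621329 (+), ARP1 at chr1:16266406-16266435 (+) and RPL10B at chr1:9321544-9321573 (+).
RPL5B: agaggacttaaaGGCCCAaatataaagccc
RPL5A: taaaagcccataGGCCCAttaataatataa
RPL18: aaattatataaaTGGGCCaatatattacag
ARP1: gggctttatttaGGCCCAataacaaaattc
RPL10B: ttagttccttaaTGGGCCttattttggtcc
RPL5B, RPL5A, RPL18 and ARP1 were above all parental columns by 0.46, 0.26, 0.36 and 0.11 on the log2 scale, and RPL10B lay between the parental ranges. A pair of whole windows show the same motif in the gene farthest above and the gene farthest below that hold it among the named genes: emb2746 at chr5:25400067-25400316 (+) with a pair of sites, and LBD21 at chr3:3474672-3474921 (+) with 1.
emb2746: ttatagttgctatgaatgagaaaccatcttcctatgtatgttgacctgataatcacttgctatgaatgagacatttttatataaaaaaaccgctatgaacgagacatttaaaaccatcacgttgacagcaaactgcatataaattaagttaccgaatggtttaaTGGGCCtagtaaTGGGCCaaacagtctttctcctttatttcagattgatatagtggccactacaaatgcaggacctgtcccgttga
LBD21: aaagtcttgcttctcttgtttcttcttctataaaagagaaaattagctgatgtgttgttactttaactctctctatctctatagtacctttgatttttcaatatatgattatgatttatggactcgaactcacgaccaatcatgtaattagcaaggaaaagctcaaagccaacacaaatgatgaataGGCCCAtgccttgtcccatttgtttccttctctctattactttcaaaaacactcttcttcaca
The total of emb2746 lay above both parents and that of LBD21 below both.

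W-boxes (TTGACC and TTGACT, either strand), the letters that WRKY factors bind, were counted in the same windows. They occurred in 18 of the 46 genes at least 2-fold below (39.1%), in 8 of the 32 at least 2-fold above (25%) and in 27.8% of all compared genes. Of the 15 genes named below, 6 held one, shown here in capitals on the strand of the gene: AT1G56120 at chr1:20993737-20993766 (-), MYB77 at chr3:18559556-18559576 (-), NUDT6 at chr2:1543250-1543279 (+), AT1G80440 at chr1:30241282-30241311 (+), SOT17 at chr1:6398474-6398503 (+) and ACS6 at chr4:6863919-6863948 (+).
AT1G56120: ctctaaaggtgaTTGACTcttccgtagcaa
MYB77: tccAGTCAAaaaagtcagaaa
NUDT6: aaacatttcggtTTGACTttagcaaaatcg
AT1G80440: tataatctgttgTTGACTggaattcgaatg
SOT17: aacacgtttgtgGGTCAAataatagcctca
ACS6: aaactttagggaAGTCAAacaaaactataa
The other motifs counted on both strands were the CCA1-binding site (AAAAATCT), the G-box (CACGTG), the GCC-box (GCCGCC), the DRE core (CCGAC), the heat shock element and the telo-box (AAACCCTA), and none of the motifs contains another. The DRE core was in 5 of 32, 3 of 46 and 13.4% of all windows, and the G-box in 3 of 32, 4 of 46 and 7.63%. The CCA1-binding site was in 4 of 32, 5 of 46 and 6.99%, the GCC-box in 0 of 32, 1 of 46 and 1.95%, the telo-box in 1 of 32, 1 of 46 and 3.29%, and the heat shock element in 0 of 32, 1 of 46 and 0.435%. A match is a description of letters in a window and not a site of binding.

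Starch degradation genes lay high. Most starch synthesis genes lay over mid-parent, as did the median of all genes, at 0.17. Leaf starch is built by day and broken down at night. Of 13 degradation genes compared, 9 were above and none below, beside 22% and 8.77% of all genes (median 0.89 over mid-parent). On the rescaled columns 3 were above. PHS2, a cytosolic phosphorylase, had 191.6 RPKM in F8, against 21.0, 63.5 and 72.4 RPKM in A. arenosa and 97.5, 47.2 and 91.2 RPKM in A. thaliana. PWD, a dikinase that marks starch for breakdown, had 36.4 RPKM in F8, against 7.51 to 17.5 RPKM in A. arenosa and 7.33 to 27.5 RPKM in A. thaliana. AMY3, an amylase, had 118.3 RPKM in F8, against 43.9 to 75.1 RPKM in A. arenosa and 30.2 to 58.0 RPKM in A. thaliana. BAM1 and MEX1 stayed within the range, at 0.21 and 0.33 over mid-parent. Of 14 synthesis genes, 4 were above, a share near the 22% of all genes, and none below (median 0.66). SS4, ISA1, PGMP and ISA2 were above by 0.03 to 0.34 on the log2 scale. On the centred and on the rescaled columns 2 synthesis genes were above. APS1, a subunit of the enzyme that makes the starch precursor, and SBE2.1, a branching enzyme, were farthest over mid-parent at 1.11 and 1.07, both within the A. thaliana range, whereas APL3 and SS2 were at -0.72 and -0.11.

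**Figure D3:**
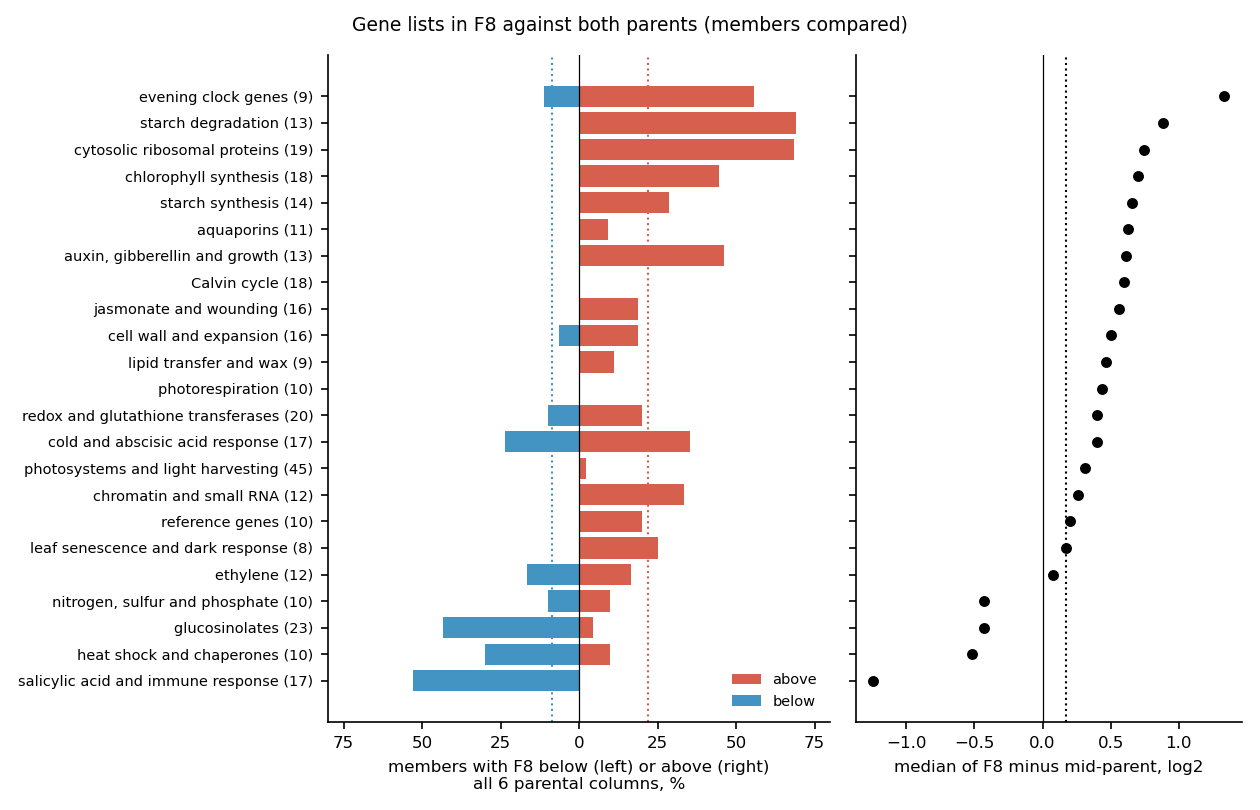
Left, the percentage of compared members with F8 below (blue, leftward) or above (red, rightward) all 6 parental columns, for 23 gene lists with at least 8 members compared, with dotted lines at the shares of all genes, 8.77% and 22%. Right, the median of F8 minus mid-parent (log2) per list, with a dotted line at 0.17 for all genes: the salicylic acid list is lowest at -1.24 and the evening clock list highest at 1.34.

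Genes of the evening clock list, most of which peak late in the day, were high as well. CHE stayed within the range at 0.06 over mid-parent. Of 9 compared, 5 were above (GRP7, GRP8, PRR5, GI and TOC1) and 1 below (ZTL), beside 22% and 8.77% of all genes. The median was 1.34 over mid-parent, and 2 were above and 2 below on the rescaled columns. PRR5, a repressor of the morning genes, had 73.6 RPKM in F8, against 6.57, 41.9 and 40.4 RPKM in A. arenosa and 18.9, 14.7 and 13.4 RPKM in A. thaliana. GRP7, an RNA-binding protein under clock control, had 3044 RPKM in F8, against 318.6, 1130.8 and 1702 RPKM in A. arenosa and 1793, 648.5 and 309 RPKM in A. thaliana. The morning gene CCA1 had 2.04 RPKM in F8, against 9.91, 4.73 and 8.56 RPKM in A. arenosa and 0.258, 7.23 and 24.5 RPKM in A. thaliana, so that F8 lay within the A. thaliana range. Of 8 morning genes, 4 were compared and 1 was above (PRR7, by 0.03 on the log2 scale), a share near the 22% of all genes. Their median was -0.46, with LNK1 at -0.78 and LNK2 at -0.13 from mid-parent within the parental range. The parental columns themselves spread widely in these genes, and the part of the hour of harvest in the clock, starch and cold values was not tested.

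The evening element (AAAATATCT, either strand), a sequence known from promoters of evening-phased genes, was in 3 of the 32 windows of genes at least 2-fold above, 2 of the 46 below and 2.8% of all. AIF1 held 3 copies, and its window at chr3:1726901-1727150 (+) is shown for that reason, chosen after the counts were seen.
AIF1: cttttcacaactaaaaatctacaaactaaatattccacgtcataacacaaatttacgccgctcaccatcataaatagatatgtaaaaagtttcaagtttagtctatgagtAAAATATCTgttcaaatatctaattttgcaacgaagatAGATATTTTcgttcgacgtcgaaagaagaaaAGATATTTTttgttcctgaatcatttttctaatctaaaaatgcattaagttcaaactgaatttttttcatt
The cold-responsive gene AT4G30650 held 1 copy, at chr4:14954138-14954170 (+).
AT4G30650: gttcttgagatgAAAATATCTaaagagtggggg
Capitals mark the evening element in both sequences.

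The cold and abscisic acid list was split. Of 17 members compared, 6 were above and 4 below, beside 22% and 8.77% of all genes. The median of F8 minus mid-parent was 0.40, but -0.175 without A. thaliana replicate 1. Protective proteins were among those above. RD29A, a desiccation-responsive protein, had 270.8 RPKM in F8, against 12.8, 133.8 and 114.3 RPKM in A. arenosa and 49.7, 30.2 and 24.7 RPKM in A. thaliana, and COR47, a dehydrin, had 629.5 RPKM in F8, against 117.2 to 455.5 RPKM in A. arenosa and 117.4 to 156.3 RPKM in A. thaliana. RD20, KIN2 and NCED3 were above by 0.68, 0.20 and 0.21 on the log2 scale. The members below were regulators: beside ZAT12, the phosphatases ABI1 and ABI2, which damp abscisic acid signals, and the transcription factor RD26 were below by 0.13 to 0.35. STZ, a zinc finger protein, lay 0.97 under mid-parent within the A. arenosa range.

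Chlorophyll synthesis genes lay high by small distances. All 18 were compared, 8 above and none below, beside 22% and 8.77% of all genes (median 0.70), and 5 were above on the rescaled columns. The lowest parental column was A. thaliana replicate 1 at 17 members. Against replicate 3 of each parent alone, 9 were above and 4 below, with a median of 0.075. PORB, which makes chlorophyllide in light, had 568.7 RPKM in F8, against 74.4, 246.7 and 287.2 RPKM in A. arenosa and 133.4, 184.7 and 399.9 RPKM in A. thaliana. GSA2, of the first committed steps, had 180.4 RPKM in F8, against 59.5 to 99.1 RPKM in A. arenosa and 48.0 to 131.9 RPKM in A. thaliana. CAO, which makes chlorophyll b, was at -0.34 from mid-parent and GUN4 at 0.18. Of 45 genes of the photosystems and light harvesting, FNR2 alone was above (288.4 RPKM in F8, with a highest parental value of 249.8 RPKM), and none of the 18 Calvin cycle genes was outside. These counts rest on A. thaliana replicate 3: without it 16 of the 45 and 11 of the 18 were above. The count over all genes grows too when a column is left out, from 2188 above to between 2241 and 3073. The 22% of all genes is therefore no measure for these counts. The lowest parental column was A. thaliana replicate 1 at 44 of the 45 photosystem genes and the highest A. thaliana replicate 3 at 38, so the A. thaliana columns nearly span the range by themselves. The photosystem median over mid-parent was 0.32, and -0.004 on the rescaled columns. CAB2 and PETC were farthest over mid-parent at 1.02 and 0.88, PETE1 and PSAD-1 farthest under at -0.34 and -0.14. In the Calvin cycle RBCS1A and RBCS3B, near copies of the Rubisco small subunit with shared reads possible, were at 1.22 and 1.15, CP12-2 at -0.01 and RPE at 0.04.

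Growth and hormone genes were above in 6 of 13 members compared, with none below, beside 22% and 8.77% of all genes (median 0.61). GASA4, a gibberellin-responsive peptide, had 203.3 RPKM in F8, against 67.8, 88.4 and 80.5 RPKM in A. arenosa and 13.3, 31.7 and 43.1 RPKM in A. thaliana. SHY2, an auxin response repressor, had 30.0 RPKM in F8, against 10.4 to 15.3 RPKM in A. arenosa and 5.28 to 16.4 RPKM in A. thaliana. The auxin transporters PIN3 and PIN7 and the auxin receptor TIR1 were above by 0.44, 0.23 and 0.50 on the log2 scale. PIL6 (-0.08) was the only member under mid-parent, and IAA19 was at 0.05. Of the cell wall genes, EXLA1 (1.89 over mid-parent) and EXPA1 (-0.65) stayed within the range. Of 16 cell wall genes, 3 were above (XTH4, CESA3 and CESA6), a share under the 22% of all genes, and XTH24 was below. XTH24 had 20.6 RPKM in F8, against 35.8 to 114.3 RPKM in A. arenosa and 65.0 to 84.9 RPKM in A. thaliana.

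Jasmonate genes lay over mid-parent at 14 of 16 members, but the median over all genes was itself 0.17 over mid-parent. Of the photosystem genes 41 of 45 lay over it, and of the Calvin cycle genes 17 of 18. Of the 16, 3 (LOX2, LOX3 and CORI3) were above, a share under the 22% of all genes, and none below, with a median of 0.56. Without A. arenosa replicate 1 the median was 0.25 and 1 member was below, and without A. arenosa replicate 2, 6 were above. LOX2, a chloroplast lipoxygenase that starts jasmonate synthesis, had 1563 RPKM in F8, against 318.2, 728.3 and 1291.8 RPKM in A. arenosa and 282.8, 275.5 and 316.1 RPKM in A. thaliana. LOX3 had 55.2 RPKM in F8, against 1.90, 24.7 and 46.7 RPKM in A. arenosa and 10.8, 9.82 and 9.77 RPKM in A. thaliana. MYC2, the main transcription factor of the response, was at -0.37 from mid-parent, and AOC3 at -0.08. In ethylene, 2 of 12 members were above (CTR1 and EIN2) and 2 below (ACS6 and ERF104), beside 22% and 8.77% of all genes. The median was 0.08, and -0.01 on the centred columns. EIN3, a transcription factor of the ethylene response, was at 0.59 over mid-parent within the A. arenosa range.

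Further lists held smaller numbers outside the range. Of 31 chromatin and small RNA genes, 12 were compared, with 4 above and none below, beside 22% and 8.77% of all genes (median 0.26). On the rescaled columns 2 were above and the median was -0.03. ROS1, a DNA demethylase, had 18.6 RPKM in F8, against 8.25 to 17.2 RPKM in A. arenosa and 3.00 to 4.90 RPKM in A. thaliana, and AGO4, RDR6 and HDA19 were above by 0.04 to 0.16. RDR1, an RNA polymerase of antiviral silencing, was the lowest member at -0.73 from mid-parent, before SWN at -0.33. Of 22 heat shock and chaperone genes, 10 were compared. HSP81-2 was above by 0.001 (log2) and 3 were below (BIP2, SHD and HSP70-2), beside 22% and 8.77% of all genes. The median was -0.52, and MBF1C was lowest at -2.17. HSC70-1 was at 0.23. Of 20 redox genes, 4 were above and 2 below, near the 22% and 8.77% of all genes. CSD2, a chloroplast superoxide dismutase, had 952.4 RPKM in F8, against 261 to 830.1 RPKM in A. arenosa and 36.2 to 731.8 RPKM in A. thaliana. The glutathione transferases GSTF6 and GSTF7 are near copies with shared reads possible, and lay at -2.03 and -2.65 from mid-parent, over A. thaliana replicate 3 in both. FER1, a ferritin, was at 1.15 over mid-parent within the A. arenosa range. GSTF2 and GSTF8, of the same family, were the 2 members below.

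NRT1.1, the dual-affinity nitrate transporter, and NIA1, a nitrate reductase, stood on opposite sides. NRT1.1 had 63.6 RPKM in F8, against 11.3, 14.9 and 22.8 RPKM in A. arenosa and 14.2, 11.9 and 30.6 RPKM in A. thaliana. NIA1 had 8.76 RPKM in F8, against 29.2, 18.6 and 29.1 RPKM in A. arenosa and 15.3, 52.1 and 136.6 RPKM in A. thaliana. They were the 1 member above and the 1 below among 10 nitrogen, sulfur and phosphate genes compared, beside 22% and 8.77% of all genes. The median of that list was -0.43, and its members GS2 and SPX1 were at 0.53 and -0.66 from mid-parent. SOC1, a flowering activator, had 21.9 RPKM in F8, against 29.0 to 32.2 RPKM in A. arenosa and 33.6 to 72.4 RPKM in A. thaliana. SVP, a flowering repressor, was below by 0.08 (log2), FVE above by 0.11 and MAF1 at 0.24 over mid-parent. Of the 23 flowering time genes 5 were compared, 1 above and 2 below, beside 22% and 8.77% of all genes, with a median of -0.07. Genes not compared, in this as in the other lists, entered no count. Of the 10 reference genes, 2 were above (ACT7 by 0.03 and PEX4 by 0.11), a share near the 22% of all genes, and none below. UBC9 and UBQ10 were lowest at -0.21 and -0.11 from mid-parent. The median was 0.20, close to the median of all genes, and -0.12 on the rescaled columns.

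**Figure D4:**
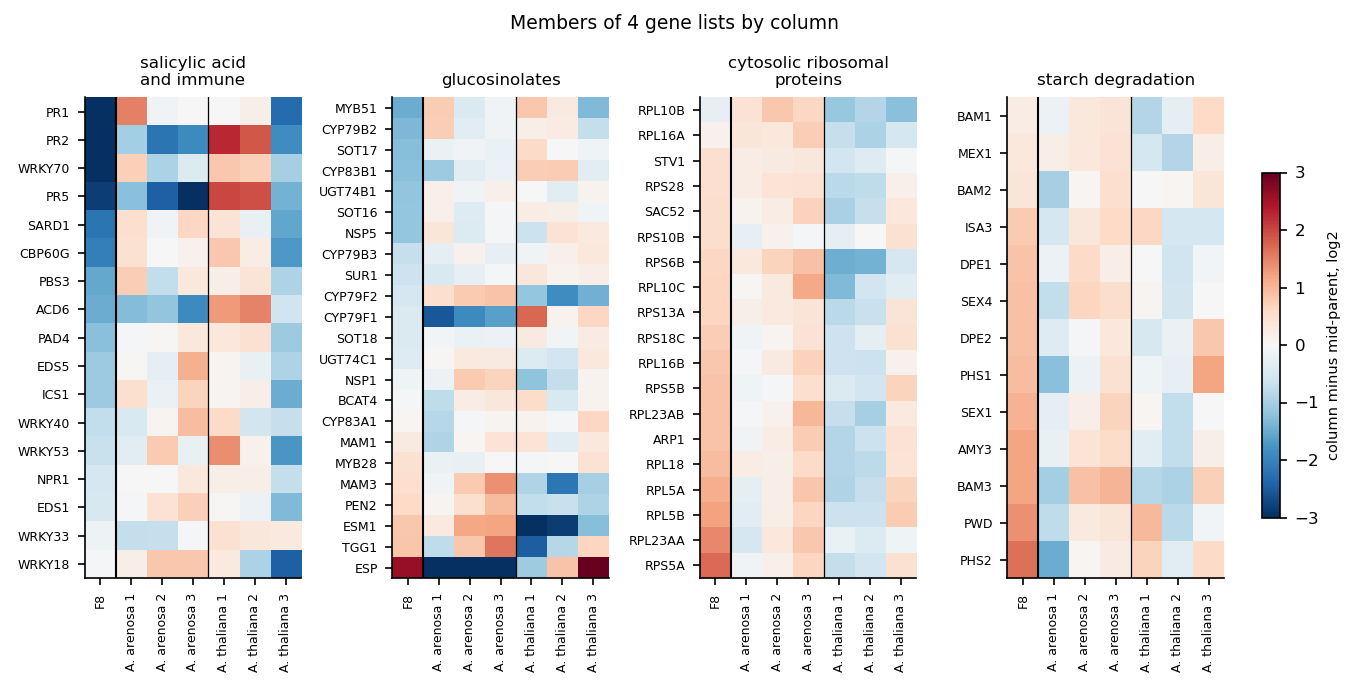
Each column minus the mid-parent value (log2, blue lower and red higher, colours end at 3 in size) for the compared members of 4 lists, with F8 at the left of each panel, then the 3 columns of A. arenosa and the 3 of A. thaliana. F8 is blue at the members of the salicylic acid list that lie far under mid-parent, where A. thaliana replicate 3 is also blue, and red at most ribosomal and starch degradation genes.

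The parents differed from each other at 1134 genes, by non-overlapping columns and at least 2-fold between means. Of these, 917 were higher in A. arenosa. There F8 lay in the A. arenosa range at 300 (32.7%), in the A. thaliana range at 152 (16.6%), between the ranges at 326 (35.6%), above both at 114 (12.4%) and below both at 25 (2.73%). The median position was 0.73 on a log2 scale with A. thaliana at 0 and A. arenosa at 1. At the 217 genes higher in A. thaliana, F8 lay in the A. arenosa range at 55, in the A. thaliana range at 53, between at 79, above both at 11 and below both at 19, with a median position of 0.44. With the columns centred, 496 and 412 genes separated the parents and the median positions were 0.70 and 0.56. The mid-parent value averages the levels of both parents on the RPKM scale, so it lies nearer to the higher parent than the middle of this log2 scale. These medians alone therefore do not show a lean of F8 to either parent.

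The widest parental differences show the range of outcomes. BG3, a beta-1,3-glucanase, had 45.8 RPKM in F8, against 2275, 1209.6 and 1526 RPKM in A. arenosa and 164.6, 165.4 and 10.9 RPKM in A. thaliana, so that F8 lay in the low A. thaliana range. AT3G47540, a chitinase family protein, had 4.73 RPKM in F8, against 343.5, 213.4 and 310.3 RPKM in A. arenosa and 15.8, 14.9 and 10.5 RPKM in A. thaliana, under both. AT4G21870, an HSP20-like chaperone, had 158.4 RPKM in F8, against 82.2, 76.0 and 149.5 RPKM in A. arenosa and 2.78, 6.69 and 6.78 RPKM in A. thaliana, above both. AT1G27030 stayed at the A. arenosa level with 113.5 RPKM in F8, against 87.8 to 116.4 RPKM in A. arenosa and 2.13 to 8.33 RPKM in A. thaliana. In the other direction, UBQ3, a polyubiquitin, lay between with 114.1 RPKM in F8, against 11.1 to 16.5 RPKM in A. arenosa and 128.1 to 160.8 RPKM in A. thaliana.

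**Figure D5:**
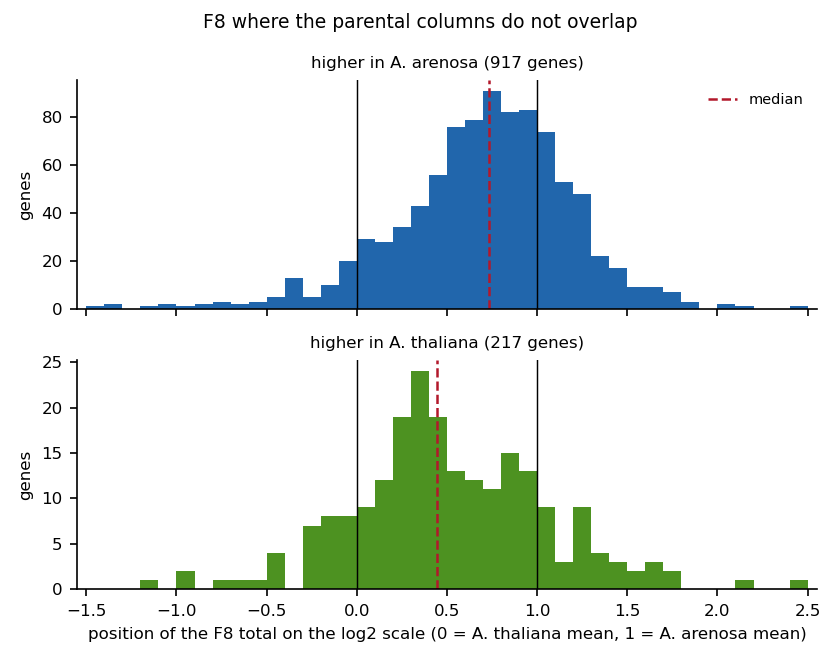
Number of genes by the position of the F8 total between the parental means (log2 scale, 0 for the A. thaliana mean and 1 for the A. arenosa mean), at 917 genes higher in A. arenosa (top) and 217 higher in A. thaliana (bottom), with values beyond the axis in the end bins. The dashed medians stand at 0.73 and 0.44. The mid-parent value lies nearer to the higher parent than the middle of this scale.

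Allele shares within F8 were not used in the calls. The A. arenosa allele made up a median of 50.1% of the total at genes above, 47.4% at genes below and 50.3% at all compared genes. In the 2-fold sets the medians were 58.8% above and 45.4% below. AT1G51402 came from both alleles, 265.6 RPKM from A. arenosa and 198.3 RPKM from A. thaliana, and so did WRKY70, with 7.94 and 6.58 RPKM. C/VIF2 came mostly from the A. thaliana allele (8.11% A. arenosa) and AT4G29020 mostly from the A. arenosa allele (79.3%). Of the low genes, PR2 (0.215% A. arenosa), AT1G35710 (6.39%) and AT5G42530 (10.6%) were nearly all from A. thaliana, and the A. arenosa allele of AT1G80440 was at 0. The sources used here do not give how reads were assigned to alleles.

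Level, gene size and chromosome were described for the same genes. With the genes split into 5 equal bins by mid-parent level, from lowest to highest, the share above was 24.5%, 21.7%, 21.6%, 21.1% and 21.3%, and the share below 5.89%, 7.75%, 10%, 11.3% and 8.86%. The F8 table holds no total under 2.001 RPKM, so genes of low level could hardly be counted below. A further 2527 genes whose larger parent reached 5 RPKM were not listed in F8 and entered no count. The median gene span in TAIR10.1 was 1737 bp at genes 2-fold below, 2677 bp at genes 2-fold above and 2505 bp at all compared genes. Shares above ran from 20% (chromosome 4) to 24.7% (chromosome 3), and shares below from 8.34% (chromosome 1) to 9.88% (chromosome 2).

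The F1 and A. suecica were measured against the same parental columns, so their values are given side by side with F8 and not as independent comparisons. On 9806 genes shared by all tables, 22.2% lay above and 8.67% below in F8. In the 3 F1 columns 21.2%, 17.9% and 23.7% lay above and 4.63%, 4.81% and 3.64% below, and in A. suecica 38.8% above and 8.79% below. With every column centred, the shares above were 16.7% in F8, 9.34%, 10.7% and 12.4% in the F1 columns and 20.3% in A. suecica, and the shares below were 13.5% in F8, 14.2%, 11.7% and 12% in the F1 columns and 20.3% in A. suecica. WRKY70 had 14.53 RPKM in F8, 95.6, 40.3 and 43.7 RPKM in the F1 and 208.9 RPKM in A. suecica. PR1 had 40.3 RPKM in F8, 927.7, 59.6 and 278.4 RPKM in the F1 and 434.4 RPKM in A. suecica.

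Genes above in F8 varied in the other allotetraploids too. COR15B had 184 RPKM in F8, 54.5, 169.7 and 148.8 RPKM in the F1 and 49.99 RPKM in A. suecica. CP29 had 1021 RPKM in F8, 248.4, 460.4 and 519.9 RPKM in the F1 and 112.5 RPKM in A. suecica. RPS5A had 334.7 RPKM in F8, 93.1, 112.2 and 115.5 RPKM in the F1 and 85.9 RPKM in A. suecica, and AT3G59040 had 40.9 RPKM in F8, 11.25 to 12.2 RPKM in the F1 and 10.5 RPKM in A. suecica. For RPS5A and AT3G59040 no other allotetraploid column came near the F8 value, whereas for COR15B F1 replicates 2 and 3 did. With RPS5B as a close copy, the F8 total of RPS5A, all assigned to the A. arenosa allele, is uncertain.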

How the data were processed

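Rosette leaf mRNA of 5 groups was sequenced, with 1 table per group. The authors deposited RPKM per transcript for the parents and RPKM per allele for the allotetraploids, per the file headers. Per the submitters' processing notes the genome was TAIR 9; aligner, counting and allele assignment are not stated by the sources used here, nor is depth, so no counting interval can be given. Allele values were summed to totals; 1 transcript per gene was kept, the one with the highest mean over the 7 columns, and 4 rRNA transcripts were removed. Values were compared as log2(RPKM + 1), which understates differences of low genes, with a filter of 5 RPKM on the larger parental mean. For mid-parent and for the filter, each parent entered as its mean over columns on the log2 scale. For mid-parent, these means of both parents were put back to RPKM + 1, averaged, and put on the log2 scale. Where the columns of a parent spread widely, this lies under a plain mean of their RPKM. Named genes are the 15 farthest above and 15 farthest below, on both the deposited and the centred scale, with F8 (above) or the lowest parental column (below) at least 20 RPKM; in each pathway list, the 2 members farthest over and the 2 farthest under mid-parent, of which 1 is not reported here; other genes were chosen after their values were seen. Members, lists and alternatives were chosen with earlier results of these data known. Names, spans and windows are from RefSeq's TAIR10.1, in which 9891 of 9931 genes were found. Python 3.11.15, numpy 2.4.6, pandas 2.3.3 and matplotlib 3.10.9 were used.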

Additional observations from a re-analysis of the deposited data

Results flagged for a closer look

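F8 and A. suecica stood on opposite sides of all 6 parental columns at 3 of the genes named. AT1G51402 had 463.9 RPKM in F8 and 6.264 RPKM in A. suecica, which was under the lowest parental column (7.046 RPKM). AT3G15450 had 274.4 RPKM in F8 and 8.638 RPKM in A. suecica, against a lowest parental column of 15.55 RPKM. AT5G42530 lay the other way, with 258.7 RPKM in F8 and 5630.5 RPKM in A. suecica, over the highest parental column of 2414.8 RPKM. The F1 columns had 130.2, 14.58 and 462.8 RPKM at AT1G51402 and 91.3, 253.5 and 236.1 RPKM at AT3G15450. At AT5G42530 they had 947.5, 366.7 and 490.7 RPKM. F8 and A. suecica have 1 column each, both share the parental columns, and the differences were not tested.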

How the results depend on the processing

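No paired analysis was possible because F8 has 1 column with no replicate number. All 30 named genes kept their side in each alternative that kept them, and 20 were kept at 20 RPKM. Most of this was fixed beforehand. Leaving out columns or changing the filter or pseudocount cannot move a named gene into the range or across it. Keeping the side after centring was part of the naming rule. Only the rescaled columns and a mean over the transcripts of each gene could have moved a named gene. Without A. thaliana replicate 3, 77 genes were 2-fold above and 156 below, and without A. arenosa replicate 3, 85 were above. Over the columns left out in turn, counts ran from 2241 to 3073 above, 921 to 1406 below, 32 to 85 (2-fold above), 48 to 156 (2-fold below), 438 to 924 (2-fold over mid-parent), 407 to 510 (under), and 80 to 131 and 36 to 45 (list members above and below). Where the parents were apart they ran from 210 to 733 (A. arenosa range), 77 to 266 (A. thaliana range), 435 to 696 (between), 108 to 526 (above) and 53 to 97 (below); without A. thaliana replicate 3 they were 733, 77, 614, 526 and 97. Among them, 696 lay between and 252 above without A. arenosa replicate 1, 210 in the A. arenosa range without A. arenosa replicate 3, and 68 below without A. thaliana replicate 1. Without A. thaliana replicate 3, 1406 genes were below and 131 list members above. The median of the morning clock genes turned to 0.26 at 20 RPKM, and those of the starch synthesis, photosystem, Calvin cycle, photorespiration, flavonoid, aquaporin, lipid, redox and reference gene lists turned negative, and that of flowering time positive, against replicate 3 of each parent alone. Without A. arenosa replicate 3, 5 ethylene, 6 cell wall, 3 heat shock, 3 glucosinolate and 5 reference genes were above. Without A. arenosa replicate 2, 5 heat shock genes were below, without A. thaliana replicate 1, 3 nitrogen genes were below, and without A. thaliana replicate 3, 7 redox genes were above and 5 below. Leaving out a parental column narrows the range, so such calls can only grow among genes still compared. The shares of 22% and 8.77% of all genes belong to the 6 columns as deposited. They are no measure for list counts under another setting. Centring gave 1319 below and 72 above where the parents were apart. Rescaling to 1 sum gave 1015 above, 1391 below, 15 (2-fold above), 253 and 794 (2-fold over and under mid-parent), 59 above where the parents were apart and 47 list members above, with a median of -0.14 against mid-parent. At 20 RPKM there were 885 above, 411 below, 10 (2-fold above), 345 (2-fold over mid-parent), and 226, 135, 242 and 70 genes in the A. arenosa range, the A. thaliana range, between and above. Replicate 3 of each parent alone gave 2209 below, 64 and 118 (2-fold above and below), 168 (2-fold over mid-parent) and 117 list members below, and no value for the genes where the parents are apart. The cause of these moves was not tested beyond fewer columns or genes.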

Other observations

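No photorespiration gene (10 compared) and no flavonoid gene (6 compared) lay outside. In 3 other lists, 1 of 11 aquaporins, 1 of 9 lipid transfer and wax genes and 1 of 6 touch response genes lay above, with none below, beside 22% and 8.77% of all genes. Without A. thaliana replicate 3, 5 photorespiration genes and 6 aquaporins were above, and against replicate 3 of each parent alone 7 lipid transfer and wax genes were below. Their medians of F8 minus mid-parent were 0.43, 0.05, 0.63, 0.47 and 0.12. In photorespiration GLDP2 and GLDP1 stood at 0.76 and 0.67 from mid-parent and GLO1 and GGT1 at -0.49 and -0.39. Among flavonoid genes, TT4, the chalcone synthase, and PAL2 were at 1.03 and 0.51 and PAL1 and C4H at -0.59 and -0.34. DELTA-TIP and PIP2E were at 1.45 and 0.95 and PIP2B and PIP1A at -1.01 and -0.09 among aquaporins, and PIP2E was the one above. For lipid transfer and wax the values were 0.95 for LTPG1, 0.85 for LTP2, -0.41 for CUT1 and -0.33 for CER3, with FDH above. In the touch list TCH3 was at 0.70, CAM7 (above) at 0.48, TCH2 at -0.31 and CAM3 at -0.02; calmodulin copies may share reads. Of 8 senescence and dark response genes, 2 were above (DIN10 and DRM1), a share near the 22% of all genes, and none below. SAG21 and SEN1 were at -1.36 and -0.36 from mid-parent, and the median was 0.17. The guard cell markers FAMA and MYB60, transcription factors of the stomatal lineage and of guard cells, were both above, beside 22% of all genes. They had 11.72 and 11.97 RPKM in F8, and on the centred columns 1 of them was above. FAMA had 7.41 to 10.67 RPKM in A. arenosa and 6.94 to 9.23 RPKM in A. thaliana, and MYB60 had 5.17 to 6.38 RPKM in A. arenosa and 4.43 to 6.51 RPKM in A. thaliana. KAT1, the other guard cell marker, was not listed in F8.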
